A study of Drosophila melanogaster with 2 samples.

Results

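The 261 peaks described here were ChIP-seq peaks of a GFP-tagged Dorsal protein that stood at the start sites of neighbouring protein-coding genes. A peak was kept when its summit, the position of highest enrichment that the authors gave for it, lay within 1000 bp of an annotated start site of at least 2 different coding genes. These shared peaks were 261 of 2690 thresholded peaks on the chromosome arms, or 9.70%. They were also 261 of the 1758 peaks with any coding start site in that window, or 14.8%. Each peak was assigned to the pair of genes whose start sites lay nearest to its summit. By the strands of that pair, 198 peaks were divergent (transcription leads away from a common stretch), 49 were tandem (the same strand) and 14 were convergent (the start sites face and overlap each other).

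Dorsal (dl) is a transcription factor of the NF-kB family. It is known for setting the dorsal-ventral axis of the early embryo and for acting in the Toll immune pathway of larvae and adults. Drosophila genes are densely packed, and a divergent pair can share the stretch between its start sites as a common promoter region. GAGA repeats at fly promoters are the known binding sequence of GAGA factor, the product of the Trl gene, which keeps promoters accessible.

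The material was entire larvae of the strain dl-small-GFP, in the third instar and wandering, males and females pooled, with a transgene in which GFP was fused to the C-terminus of the dl-RC form. Immunoprecipitation was against GFP, although a label field names dl as the antibody. The 1 group had 2 biological replicates, numbered 3 and 1, with sonicated fragments of 175 to 275 bp and 200 to 275 bp. The labels point to a control experiment, no other genotype, treatment or stage was compared, and the age is unknown. All tissues of the larva were in the chromatin, so a signal that few cells carry and a weak signal in many cells cannot be told apart.

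To show what a shared summit looks like, the genomic stretches around 6 divergent summits are printed from the NCBI release 6 assembly, forward strand, 5′ to 3′, without any annotated exon of a coding gene. The first 3 are at copper transporter and metallothionein genes, and their capitals mark the core of the metal response element, TGCACNC or TGCGCNC on either strand, which metal transcription factor MTF-1 is known to bind. They are chr3R:8316843-8317043 between Coq2 and Ctr1B, chr3R:9784420-9784620 between CG8500 and MtnA, and chr3R:20534705-20534903 between MtnE and MtnD. The MtnE/MtnD stretch was added after its values were seen. It stands in place of the stretch between rtet and Sec15, a stronger peak of 594. That stretch held 0 metal response cores and 0 GAGAGAG runs.
Coq2/Ctr1B: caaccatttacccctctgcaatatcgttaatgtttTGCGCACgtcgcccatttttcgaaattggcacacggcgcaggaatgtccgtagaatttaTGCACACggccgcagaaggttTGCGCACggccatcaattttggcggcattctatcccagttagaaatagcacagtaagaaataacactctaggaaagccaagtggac
CG8500/MtnA: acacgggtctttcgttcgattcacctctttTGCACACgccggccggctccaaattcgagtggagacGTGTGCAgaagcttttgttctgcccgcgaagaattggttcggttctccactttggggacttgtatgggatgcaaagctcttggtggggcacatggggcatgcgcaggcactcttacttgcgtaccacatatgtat
MtnE/MtnD: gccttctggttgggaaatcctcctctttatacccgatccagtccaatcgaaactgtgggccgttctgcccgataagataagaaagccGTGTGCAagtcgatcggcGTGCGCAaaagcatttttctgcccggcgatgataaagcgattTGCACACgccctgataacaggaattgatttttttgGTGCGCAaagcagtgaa
The next stretch, chr2L:10737224-10737344 between CG12299 and Vha16-5, held neither that core nor the run GAGAG and is a counterpart without capitals.
CG12299/Vha16-5: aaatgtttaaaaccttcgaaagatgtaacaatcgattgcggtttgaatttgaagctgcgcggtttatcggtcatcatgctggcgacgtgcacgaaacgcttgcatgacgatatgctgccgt
In the last 2, chr2L:2753069-2753232 between Bacc and Pgk and chr2L:19423553-19423726 between Pax and Alp12, capitals mark every GAGAG on either strand.
Bacc/Pgk: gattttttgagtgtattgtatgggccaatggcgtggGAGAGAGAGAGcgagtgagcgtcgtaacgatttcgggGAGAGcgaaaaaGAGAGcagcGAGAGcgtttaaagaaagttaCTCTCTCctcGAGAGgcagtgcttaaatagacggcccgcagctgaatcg
Pax/Alp12: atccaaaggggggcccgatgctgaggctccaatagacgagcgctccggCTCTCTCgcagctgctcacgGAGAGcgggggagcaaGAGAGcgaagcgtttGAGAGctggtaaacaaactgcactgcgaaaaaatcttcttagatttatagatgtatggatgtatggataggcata
The metal response core occurred 3 times in the Coq2/Ctr1B stretch, 2 times at MtnA and 4 times at MtnE/MtnD. GAGAG runs covered 38 bases of the 164 at Bacc/Pgk and 22 of the 174 at Pax/Alp12, and none of the other 4 stretches held one.

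Divergent pairs made up 75.9% of the shared peaks (exact 95% interval 70.2 to 80.9%), tandem pairs 18.8% (14.2 to 24.05%) and convergent pairs 5.36% (2.96 to 8.84%). In 250 peaks the window held 2 coding genes, in 8 it held 3 and in 3 it held 4. The peaks named 235 different gene pairs and 479 of 13968 coding genes. Of the pairs, 110 had given names for both genes, 24 had only CG numbers for both, and the rest joined a named gene with one known by a CG number. Shared peaks were 13.8% to 15.8% of the promoter peaks on each of the 5 large arms, and 2 of 5 on the small chromosome 4. The rule's edge fell between CG42238/Itgbn, with its farther start site at 999 bp, and Mef2/Pal1, with its farther one at 1012 bp.

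The strength of a peak is given as the authors' own signal value, which has no stated unit and ranks peaks within this list. Among shared peaks it ran from 73.5 to 2824 with a median of 118 and a middle range from 88.4 to 197 between the quartiles. Divergent peaks had a median of 117, tandem peaks 123 and convergent peaks 110.5, against 128 for the 1497 promoter peaks with 1 coding gene. The quartile ranges of all these classes overlapped. Their highest values differed more: 2824 for divergent, 514 for tandem, 255 for convergent and 1618 for peaks with 1 coding gene. These classes held 198, 49, 14 and 1497 peaks, and whether class size relates to the maxima was not tested. Of the 20 strongest peaks on the arms, 7 were shared and 9 had 1 coding gene. All 7 were divergent, as were 75.9% of all shared peaks. Of the 100 strongest, 18 were shared, 16 of them divergent and 2 tandem. Shared peaks were thus 35.0% of the top 20 (15.4 to 59.2%) and 18% of the top 100 (11.0 to 27.0%), beside 9.70% of all arm peaks, and the first of these intervals is wide. With all promoter peaks in 4 equal bins of signal, shared peaks were 14.3%, 12.3%, 16.2% and 16.6% from the strongest bin to the weakest. The median signal of all arm peaks was reached by 49.0% of shared peaks (42.8 to 55.3%) and 55.9% of those with 1 coding gene (53.35 to 58.45%).

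**Figure D1:**
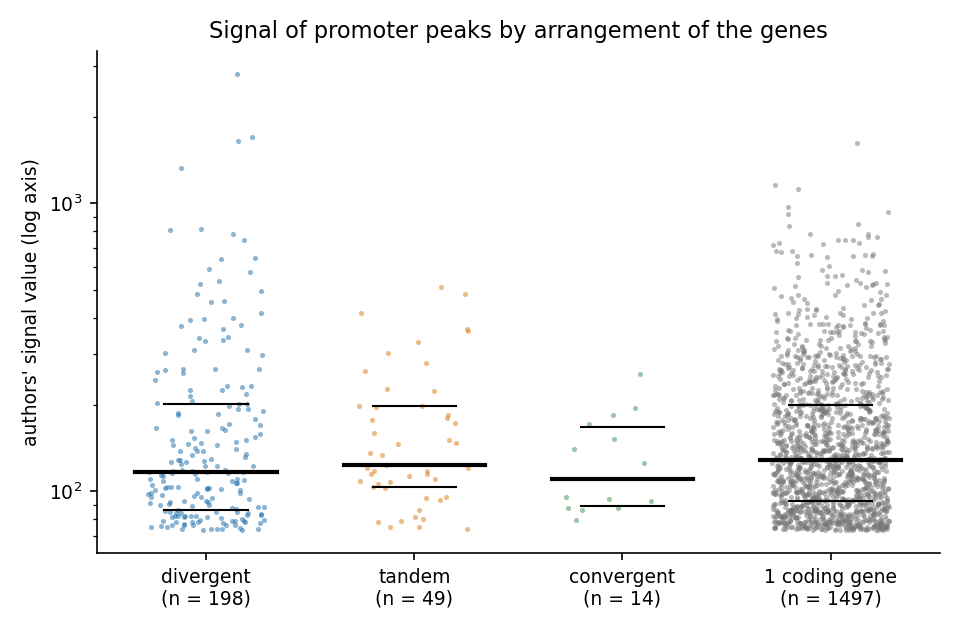
Authors' signal value (log axis) of every promoter peak, by the arrangement of the coding genes in the window; each point is a peak, the thick bar is the median and the thin bars are the quartiles. The medians lie between 110.5 and 128, while values above 1000 occur among divergent peaks (n = 198) and peaks with 1 coding gene (n = 1497).

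The strongest peak of the whole list, with a signal of 2824, lay between Coq2 (FBgn0037574), an enzyme of coenzyme Q synthesis, and Ctr1B (FBgn0062412), a high-affinity copper importer. Its region was chr3R:8316764-8317086, and the summit was 400 bp from the Coq2 start and 669 bp from the Ctr1B start, in sequence between coding genes. The 2 candidate lists made from single ChIP alignments, called list A and list B here because the files do not tie them to replicate numbers, gave it signals of 733.5 (rank 10) and 2144 (rank 1). The peak at CG8500 and MtnA (FBgn0002868), which encodes a metallothionein, a small protein that binds copper and cadmium, had a signal of 812 at chr3R:9784401-9784631. Its summit was 133 bp from the CG8500 start and 150 bp from the MtnA start. The metallothionein pair MtnE and MtnD shared a far weaker peak of 102 at chr3R:20534681-20534924, ranked 1661 on the arms. Peaks at genes of metal handling thus ranged widely in signal.

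Other divergent peaks of high signal lay close to a start site. The peak of CG3253 and CG4049 on arm 2R (24114216 to 24114481) had a signal of 1698, and its summit was 51 and 55 bp from the start sites, which are 106 bp apart. Mic26-27, which encodes a subunit of the complex that shapes mitochondrial cristae, shared a peak of 1646 with CG5916, with its own start 13 bp from the summit. The peak of CG12299 and Vha16-5, which encodes a membrane subunit of the vacuolar proton pump, reached 1332 and lay 21 bp from the CG12299 start. DUBAI and Tmem18 shared a peak of 811, the latter gene 242 bp away. The peak at Gnpat, an enzyme of ether lipid synthesis, had a signal of 785, with the second gene, CG5112, at 540 bp. In 5 of these 7 strongest divergent peaks, Coq2/Ctr1B and CG8500/MtnA being the others, the nearest start was at most 51 bp from the summit.

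The next divergent peaks included Bacc with Pgk, the phosphoglycerate kinase of glycolysis, at 746.5 (chr2L:2753056-2753258, start sites 69 and 96 bp from the summit). The ferritin genes Fer1HCH and Fer2LCH, which encode the heavy and light chains of the iron store, shared a peak of 641 whose summit was 604 and 808 bp away from their start sites, outside the stretch between them. Ssdp, a cofactor of LIM-homeodomain complexes, and CG7985 were likewise to one side of a peak of 646, at 714 and 976 bp. Sec15, a subunit of the exocyst, shared a peak of 594 with rtet. Pax (paxillin of focal adhesions) and the alkaline phosphatase gene Alp12 shared one of 537. The receptor gene of JAK/STAT signalling, dome, shared one of 525.5 with Ubqn, and eIF2Balpha, a translation initiation factor subunit, one of 495 with Vps13B.

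**Figure D2:**
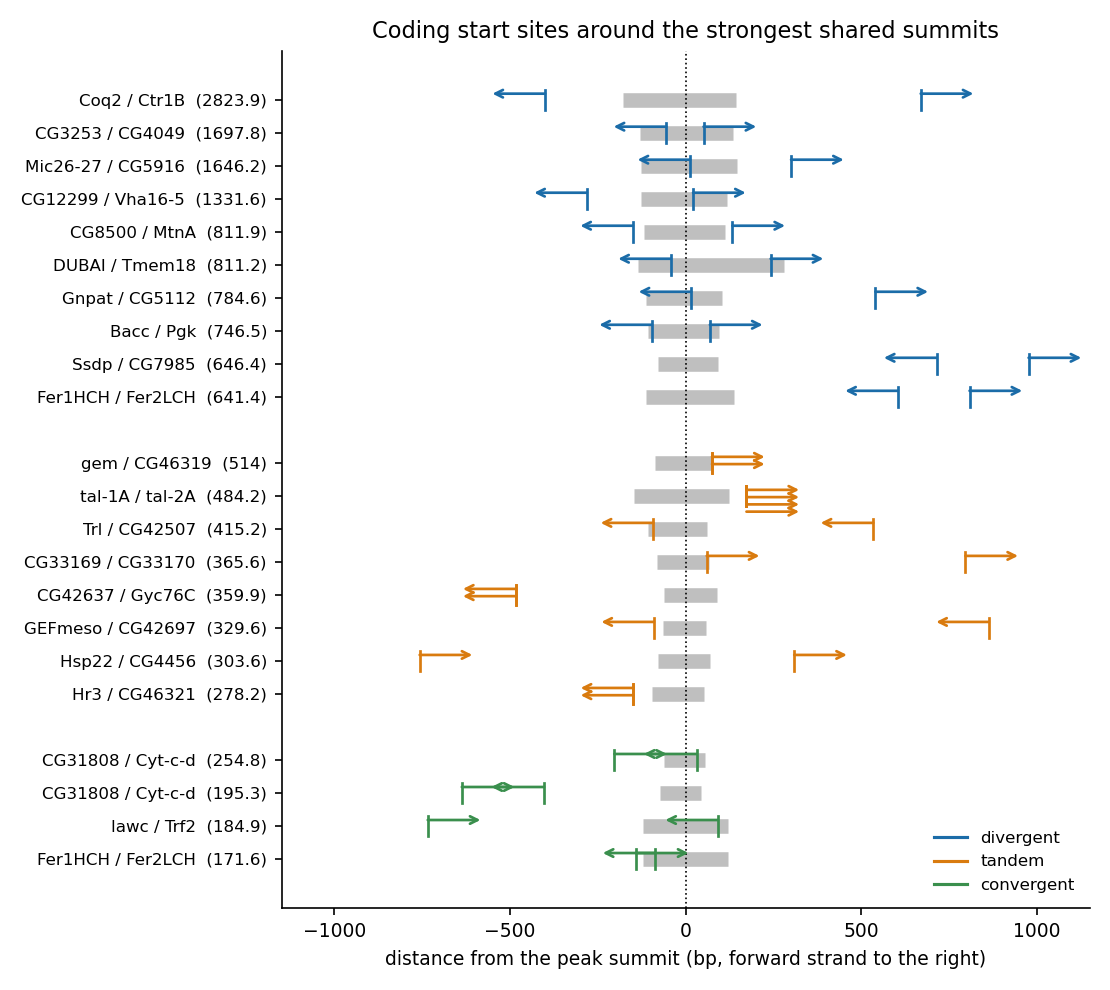
Position of the coding start sites (vertical ticks with arrows in the direction of transcription) relative to the summit (dotted line, in bp) for the 10 divergent, 8 tandem and 4 convergent shared peaks of highest signal; grey bars are the authors' regions and the signal value stands beside each pair. The Coq2/Ctr1B summit lies inside a gap of 1069 bp, whereas the Ssdp/CG7985 and Fer1HCH/Fer2LCH summits lie outside theirs.

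Start sites of divergent pairs lay 12 to 1713 bp apart, with a median of 495.5 bp. The summit fell between them in 109 of 198 peaks, or 55.1% (47.8 to 62.1%), compared with 469 of 1050, or 44.7% (41.6 to 47.7%), for divergent candidate regions that did not pass the authors' threshold. The share was 47.5% for pairs at most 250 bp apart, 39.3% between 250 and 500 bp and 61.7% between 500 and 1000 bp. For the 16 pairs more than 1000 bp apart it was 16 of 16, which the window alone fixes, and these count in the 109. Candidates that did not pass were not split by spacing, so the comparison with them is not matched for spacing. Summits between the start sites were not centred: 32 of the 109 lay nearer to the midpoint of the gap than to either start, and 37 were within 50 bp of a start.

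Shared summits as a whole were near 1 start and farther from the other. The nearest coding start was at a median of 79 bp and the farther gene of the pair at 585 bp. For peaks with 1 coding gene the nearest start was at a median of 146 bp. The nearest start was within 100 bp in 59.4% of shared peaks and in 39.9% of the others; a window with more start sites has a nearer one on average, so this is a description of the geometry. Shared summits lay in an annotated 5′ UTR exon in 37.2% (31.3 to 43.3%), between coding genes in 30.3% and in an intron in 30.3%. The same shares for peaks with 1 coding gene were 18.8% (16.8 to 20.8%), 34.7% and 44.9%. Only 4 shared summits were in a coding exon and 2 in a 3′ UTR exon. A non-coding RNA gene also started within the window in 9.20% of shared peaks and 9.82% of those with 1 coding gene.

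Tandem shared peaks differed in kind, because 35 of the 49 stood at pairs whose 2 nearest start sites were the same base. These were 31 annotated pairs, many of them a named gene with a CG gene annotated from the same base. In 27 of the 35 peaks at least 1 gene was known by a CG number, and in some of these both were. The strongest was at gem, a Grainyhead-like transcription factor gene, and CG46319, with a signal of 514 and the common start 75 bp from the summit. The tarsal-less locus followed at 484: its 4 coding entries, tal-1A, tal-2A, tal-3A and tal-AA, are small open reading frames of 1 polycistronic transcript and shared a start 173 bp away. Gyc76C, a receptor guanylyl cyclase, with CG42637 had a signal of 360. Hr3, a nuclear receptor of the ecdysone cascade, with CG46321 had one of 278. In such cases the rule counts 1 start site under several gene entries.

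The other 14 tandem peaks had separate starts. Trl, the gene of GAGA factor, and CG42507 shared a peak of 415 at chr3L:14757322-14757489, with start sites 92 and 534 bp from the summit. Their second peak, of 196, lay 200 bp from a start that both genes share and counts among the 35 above. CG33169 and CG33170 shared one of 366. GEFmeso, a guanine nucleotide exchange factor, and CG42697 shared one of 330. The heat shock gene Hsp22 and CG4456 shared one of 304, between start sites 1066 bp apart.

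The 14 convergent peaks, the smallest class, had the lowest maximum. The median signal of all arm peaks was reached by 50% of them, 47.5% of divergent and 55.1% of tandem peaks. CG31808 and Cyt-c-d, a cytochrome c gene, had peaks of 255 and 195, with start sites 234 bp apart. The peak of lawc and Trf2, which encodes a relative of the TATA-binding protein, had a signal of 185, and a convergent start pair of Fer1HCH and Fer2LCH had one of 172. The other 10 lay between 79.6 and 152.5 and included Hmgs/Vha44 at 125.5, Ogdh/Cpr73D at 95.5 and COX7C/oys at 87.8. No convergent summit lay between coding genes, since the start sites overlap each other: 7 were in a 5′ UTR exon, 6 in an intron and 1 in a 3′ UTR exon.

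Several pairs carried more than 1 peak: 23 pairs held 49 of the 261. The pairs Bacc/Pgk, CG6424/CG46315 and Fer1HCH/Fer2LCH held 3 each. At the ferritin genes the signals were 641, 198 and 172, and at Bacc/Pgk they were 746.5, 82.0 and 79.6. At CG6424/CG46315 they were 262, 121 and 86.0. In each of these pairs 1 peak was at least 2 times as strong as the others. The ferritin and Bacc/Pgk pairs also counted in both the divergent and the convergent class, because alternative start sites of the same genes were nearest to different summits. These were the 2 pairs with more than 1 orientation. The windows with most coding genes besides tal were those of CG44008, CG14933, CG46426 and CG42486, with a signal of 398, and of CG43349, CG5011, CG43348 and CG5139, with one of 115.

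To ask whether promoters with neighbours passed the threshold as often as others, all 29970 candidate regions of the pooled list on the arms were classed in the same way. In that list 8.98% of all candidates passed, and 19.1% of candidates with 1 coding gene in the window. Of the shared candidates, 261 of 1752 passed, or 14.9% (13.3 to 16.65%), above the share of all candidates and below that of candidates with 1 coding gene. By orientation, 198 of 1248 divergent candidates passed (15.9%), 49 of 427 tandem (11.5%) and 14 of 77 convergent (18.2%).

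Distance to the nearest start site was related to passing in both classes. With the nearest start within 100 bp, 20.6% of shared candidates passed (17.8 to 23.7%) and 31.4% of those with 1 coding gene (29.3 to 33.5%). The shares were 12.1% and 23.3% between 100 and 250 bp, and 9.55% and 14.6% between 250 and 500 bp. Between 500 and 1000 bp they were 10.1% (6.90 to 14.1%) and 11.6% (10.4 to 12.8%), and these intervals overlap. In a logistic regression over the 9594 candidates with a coding start site, with distance and arm as covariates, the odds of passing were 0.577 times as high for shared candidates (95% interval 0.498 to 0.669). Over the same candidates (n = 9594) the ratio was 0.593 for divergent pairs (0.502 to 0.701, adjusted p = 2.87e-09), 0.492 for tandem pairs (0.362 to 0.670, adjusted p = 9.58e-06) and 0.759 for convergent pairs (0.420 to 1.37, adjusted p = 0.362). These p-values use regions as units, adjusted over the 3 orientations, and measure no spread between animals. The tandem interval reached 1.04 with a 500 bp window (ratio 0.674), so that call did not hold there. The tandem class joins pairs with separate starts and pairs with 1 common start base, as at 35 of the 49 tandem peaks. These were not fitted apart. With a 2000 bp window the convergent ratio was 0.469 (0.305 to 0.721), past the threshold. Without covariates, at 1000 bp, the ratio for all shared candidates was nearer to 1, at 0.742 (0.643 to 0.856). It was then 0.799 for divergent pairs (0.680 to 0.940), 0.549 for tandem (0.406 to 0.744) and 0.942 for convergent (0.526 to 1.69).

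**Figure D3:**
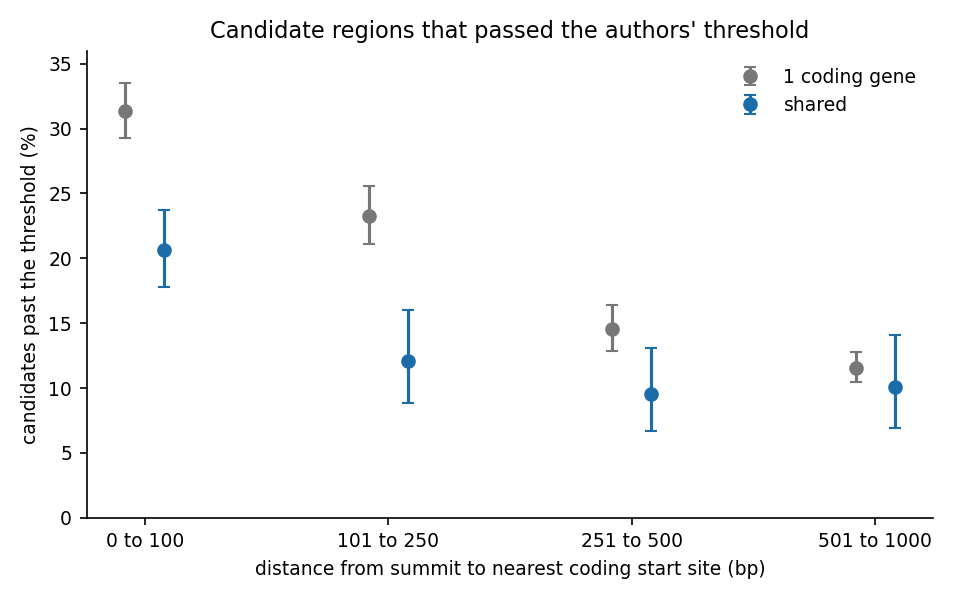
Share of pooled candidate regions that passed the authors' threshold (%), by distance from the summit to the nearest coding start site (bp), for shared candidates and for candidates with 1 coding gene in the window; bars are exact 95% intervals. Within 100 bp 20.6% of shared candidates passed against 31.4% of the others, and beyond 500 bp the intervals overlap.

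Seen from the annotation, 3520 pairs of coding genes had start sites within 1000 bp of each other, and 246 of them had a peak in the windows of both genes, or 6.99% (6.17 to 7.88%). A pair was classed here by its closest start sites, and every pair in a peak with 3 or 4 genes was counted. A peak in the window of at least 1 of the genes was present for 13.0% of pairs. Shared peaks were found for 174 of 2616 divergent pairs (6.65%), 54 of 800 tandem pairs (6.75%) and 18 of 104 convergent pairs (17.3%, 10.6 to 26.0%). For divergent pairs the share was higher with wider spacing: 4.85% up to 250 bp (3.61 to 6.36%), 6.69% between 250 and 500 bp and 9.37% between 500 and 1000 bp (7.26 to 11.85%). For tandem pairs it was 11.4% where the start was the same base and 2.53% between 500 and 1000 bp. Counted by gene, 9.90% of genes in a divergent pair (9.08 to 10.8%) had any peak in the window. The share was 12.6% for genes with no other coding start within 2000 bp (11.7 to 13.5%) and 10.8% for all coding genes. None of these shares was tested for a difference.

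**Figure D4:**
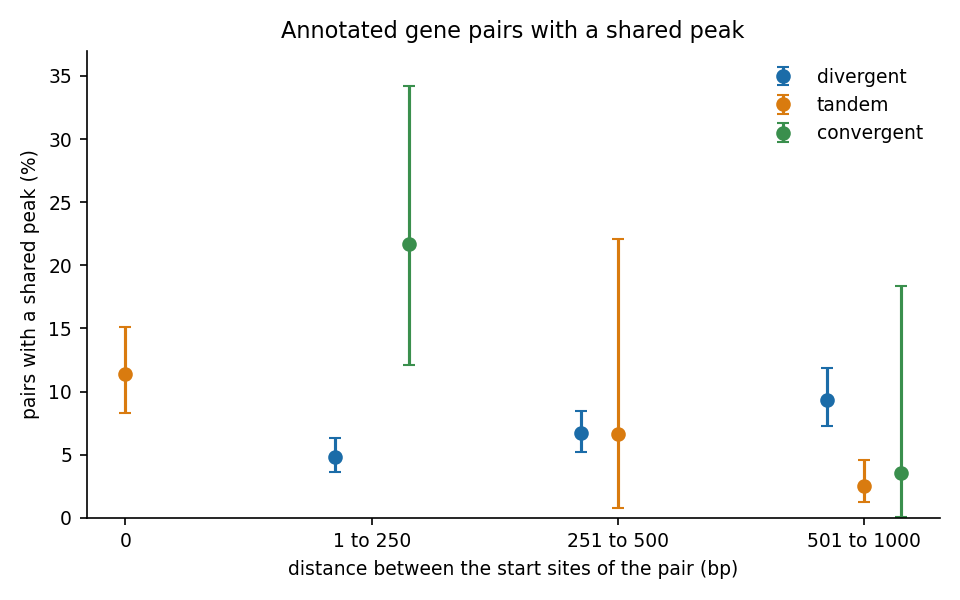
Share of annotated coding gene pairs with a shared peak (%), by the distance between their start sites (bp) and their orientation; bars are exact 95% intervals, and classes with fewer than 20 pairs are not drawn. Divergent pairs go from 4.85% to 9.37% with spacing, and the highest point, 21.7%, is 13 of 60 convergent pairs.

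Short sequence motifs were counted within 100 bp of the summits on both strands, by their plain letters, and motifs may overlap. The run GAGAGAG was in 94 of 261 shared peaks, or 36% (30.2 to 42.2%), and in 47.5% of peaks with 1 coding gene (44.9 to 50.1%). It was in 6.10% of shared candidates that did not pass and within 100 bp of 4.68% of all 19275 annotated coding start sites. In a logistic regression over all promoter peaks (n = 1758) with distance and arm, chosen after the data were seen, the odds of holding GAGAGAG were 0.683 times as high at shared peaks (0.517 to 0.901, adjusted p = 0.0355 over 5 motifs). Above the median signal, or equal to it, the ratio was 0.813 with an interval of 0.557 to 1.19, so the call did not hold there. Tandem peaks held the repeat in 46.9%, divergent in 33.3% and convergent in 35.7%. Shared peaks with GAGAGAG had a median signal of 158 and those without it 109, beside 149 and 114 for peaks with 1 coding gene.

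The repeat was related to passing in both classes. Of shared candidates with GAGAGAG 50.8% passed (43.4 to 58.2%), and of those without it 10.7% (9.17 to 12.3%). For candidates with 1 coding gene the shares were 56.5% and 11.9%. With the repeat as a further covariate the odds ratio of passing for shared candidates was 0.676 (0.577 to 0.792), and that of the repeat itself was 9.62 (8.45 to 10.95). The convergent ratio then became 1.02 (0.550 to 1.90). The authors' threshold and the motif were read from the same regions, and no library without the tagged protein was analysed here.

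At the top of the list few shared peaks could be counted. None of the 7 shared peaks in the top 20 held GAGAGAG, a count of 0 with an exact upper limit of 41.0%. That limit lies above the 36% of all shared peaks. In the top 20, 4 of 9 peaks with 1 coding gene held the repeat. From rank 21 to 100 it was at 8 of 11 shared peaks and at 34 of 51 with 1 coding gene. Between ranks 100 and 500 it was at 27 of 40 shared peaks, or 67.5%, and at 65% of those with 1 coding gene. Below rank 500 it was at 29.1% of shared peaks (22.9 to 35.8%) and 42.8% of those with 1 coding gene (39.97 to 45.7%). All 7 of the top shared peaks ranked higher in list B than in list A, and 4 of them were among the first 100 regions of both lists. Gnpat/CG5112, for example, had rank 290 in list A and rank 17 in list B, and CG8500/MtnA had ranks 224 and 14. Over all shared peaks found in both lists, list B gave the higher rank to 116 of 152 without the repeat, or 76.3%, and to 42 of 85 with it, or 49.4%. The same shares for peaks with 1 coding gene were 57.5% and 46.9%.

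**Figure D5:**
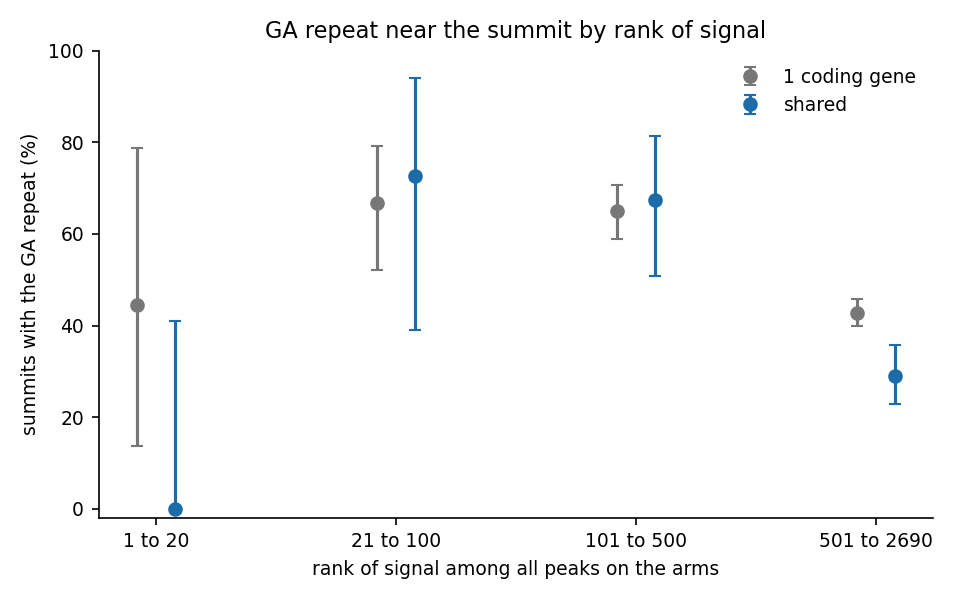
Share of summits with the GA repeat within 100 bp (%), by the rank of the peak's signal among all peaks on the arms, for shared peaks and for peaks with 1 coding gene; bars are exact 95% intervals. The repeat is at 0 of 7 shared peaks in the top 20 and at 67.5% of shared peaks between ranks 100 and 500. For peaks with 1 coding gene it is at 4 of 9 and at 65%.

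Other motifs were rarer at shared summits. The DNA replication-related element TATCGATA, a core promoter motif of housekeeping genes, was in 7 shared peaks, all divergent, or 2.68% (1.09 to 5.45%). It was in 0.868% of peaks with 1 coding gene, 4.90% of shared candidates that did not pass and 6.44% of all coding start sites, and the odds ratio between the peak classes was 2.26 (0.885 to 5.78). Its strongest carrier was CG9915/SWIP, with a signal of 310, followed by Usp8/Trm7-34 at 170 and Rap2l/RpL39 at 127. The core promoter motif GGTCACACT was in 1.15% of shared peaks and 4.42% of coding start sites. CACACAC was in 21.5% of shared peaks and 20.7% of those with 1 coding gene (odds ratio 1.16, 0.839 to 1.62). The E-box CACGTG was in 2.68% and 3.74%, and the early zygotic motif CAGGTAG in 1.15% and 2.004%.

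The Dorsal consensus itself was counted as GGGWWWWCCM or GGGWWWWWCCM, with W for A or T and M for A or C. Sites that depart from these letters were not counted. The consensus was in 7 shared peaks, 4 divergent and 3 tandem, or 2.68% (1.09 to 5.45%). It was in 1.00% of peaks with 1 coding gene (0.562 to 1.65%), in 1.21% of shared candidates that did not pass and at 1.12% of all coding start sites. The odds ratio was 2.87 (1.13 to 7.29), with an adjusted p of 0.067 over the 5 motifs in the logistic regression (n = 1758), so the difference did not pass. The carriers in order of signal were Gnpat/CG5112 at 785, CG44008/CG14933 at 398, CG43349/CG5011 at 115 and insc/sktl at 106. After them came CG42353/CG42354 at 94.96, alt/CG7655 at 74.2 and Magi/CG9406 at 74.0.

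The metal response core was examined because of the first-ranked peak, after its values were seen. At least 1 core was in 29.9% of shared peaks and 31.8% of those with 1 coding gene, against 15.45% of coding start sites. At least 3 cores were in 5 shared peaks, or 1.92% (0.625 to 4.41%), in 0.868% of peaks with 1 coding gene and at 0.233% of coding start sites. The 5 were MtnE/MtnD with 4 cores, and Coq2/Ctr1B, Fer1HCH/Fer2LCH, pk/CG12828 and crp/pkaap with 3 each. MtnE, MtnD and Ctr1B act in copper handling and the ferritins in iron storage, and the 6 shared peaks of the top 20 other than Coq2/Ctr1B held 0 to 2 cores.

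Genes of 17 functional lists, defined by gene symbol, were looked up among the 479 genes with a shared peak, which are 3.43% of all coding genes. Immune genes of the Toll and Imd pathways had 3 of 39. They were imd, the adaptor of the Imd pathway, with Dp1 at 368, Rel, which encodes the NF-kB factor Relish, with Mst85C at 172, and the peptidoglycan receptor gene PGRP-LE with sd at 88.4. Of the 39 genes, 15 have another coding start within 1000 bp, and 18 had any promoter peak, shared or not, beside 10.8% of all coding genes. The ecdysone list had 2 of 26, Hr3 and ImpL2, and the list of GAGA factor and BTB genes had 1 of 10, Trl, while 17 and 7 genes of these lists had any promoter peak. Another coding start lies within 1000 bp for 7 genes of the ecdysone list and for 1 of the other. Start sites farther apart than that can also share a peak, and such neighbours were not counted for the lists.

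Housekeeping lists were spread around the overall share of all coding genes, most of which have no other coding start within 1000 bp. Cytoplasmic ribosomal protein genes had 6 of 93, led by RpL7-like at 298, RpS20 at 201 and RpL10Ab at 177. Vesicle traffic genes had 7 of 111, among them Sec15, Vps13B, Vps39 at 342 and Vps13D at 309. Oxidative phosphorylation had 3 of 93, with Cyt-c-d first, and mitochondrial import and carriers 1 of 16, Mic26-27. Mitochondrial ribosomal proteins had 2 of 73, mRpL34 and mRpL11. Translation factors and tRNA synthetases had 3 of 84, namely eIF2Balpha, eIF1A at 342 and ArgRS-m. RNA polymerase and general transcription had 3 of 92, MED15, IntS6 and MED8. Chaperones had 2 of 39, Hsp22 and CG4456. Another coding start lies within 1000 bp for 60 of the 73 mitochondrial and 59 of the 93 cytoplasmic ribosomal protein genes. The counts were 65 of 92 for RNA polymerase and general transcription, 52 of 84 for translation factors and 54 of 93 for oxidative phosphorylation. They were 70 of 111 for vesicle traffic, 21 of 39 for chaperones, 45 of 51 for splicing and 5985 of 13968 for all coding genes. Any promoter peak was at 2.74% of mitochondrial and 9.68% of cytoplasmic ribosomal protein genes. It was at 4.35% for RNA polymerase and general transcription and 5.38% for oxidative phosphorylation. It was at 9.91% for vesicle traffic and 17.95% for chaperones, beside 10.8% of all coding genes.

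The remaining lists had 1 gene or none. They were splicing with Prp16 (1 of 51), replication and repair with mei-W68 (1 of 44), ubiquitin and autophagy with Usp8 (1 of 56), detoxification with GstS1 (1 of 155) and insulators with pzg (1 of 13). No proteasome gene of 48 had a shared peak or any promoter peak, a count of 0 with an exact upper limit of 7.397%, although 26 of the 48 have another coding start within 1000 bp. The lists were described only, and with counts this small no list was called different from 3.43%. That share is over all coding genes and is not matched for how many genes of a list have a neighbouring start.

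Some shared peaks stood at the starts of relatives. Pairs with the same symbol once a last digit or letter was removed were KP78b and KP78a, protein kinase genes with 1 common start, at 173, Pif1B and Pif1A, also with 1 common start, at 150, the tetraspanin genes Tsp42Eq and Tsp42Er at 128, and MtnE and MtnD at 102. Acbp2/Acbp3, acyl-CoA binding proteins, at 93.2 and the serpin genes Spn42Db/Spn42Dc at 82.7 were the others that this rule found. It left out the lipid phosphatase genes wun2 and wun, with a peak of 141, and the tal entries. Near-identical copies can share reads, and the authors' handling of such reads is not given in the sources used here.

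Support from single alignments was available only by list. The summits of 145 of 261 shared peaks, or 55.6% (49.3 to 61.7%), fell in the best 2718 regions of list A and also of list B, as many regions as the full thresholded list holds. The share was 62.6% for peaks with 1 coding gene (60.1 to 65.05%), and these intervals overlap. List A alone held 67.8% of shared summits and list B 80.8%, and 90.8% lay in some candidate of both lists. The signals of the 237 shared peaks found in both lists had a Spearman correlation of 0.605, beside 0.624 over 1402 peaks with 1 coding gene; the lists share the control and, by construction, the thresholded list was made from them.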

How the data were processed

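ChIP-seq regions were deposited by the authors for 1 group with 2 biological replicates. Per the file headers and the deposited descriptions, candidate lists were called on each ChIP alignment and on the pooled alignments with 1 control alignment, and an optimal list was thresholded by irreproducible discovery rate. The deposited signal value of each region is the authors' own. The sources used here do not give the caller, the aligner or the threshold value (not stated), and read depth is unknown, so no interval covers read counting or the spread between animals. Regions on dm6 were classed by their summits against Ensembl release 115 start sites. Mitochondrial peaks, 28 of 2718, and the dm3 lists were not used. Shares have exact Clopper-Pearson 95% intervals over regions. Logistic regressions were run in statsmodels 0.14.6, after a test on simulated data, with Wald intervals and Benjamini-Hochberg adjustment; other computation used scipy 1.17.1 and pandas 2.3.3 in python 3.11.15. Named genes were those of the strongest 10 divergent, 8 tandem and 4 convergent peaks, the 3 peaks with most genes, the 3 pairs with most peaks, same-stem pairs, list members and printed sequences. Others named were chosen after their values were seen. The members and lists were chosen with earlier results of these data known. Alternatives were other windows, canonical start sites, each single-alignment list, a signal minimum and other covariates.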

Additional observations from a re-analysis of the deposited data

How the results depend on the processing

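The number of shared peaks was 104 with a 500 bp window, 558 with a 2000 bp window and 128 when signal had to reach the median of the arms. The divergent share was 67.3% at 500 bp, 69.7% at 2000 bp and 81.0% with canonical start sites only, and the tandem share 25% and 26.0% at 500 and 2000 bp. Shared candidates passed in 10.1% when the best regions of list A stood for the threshold. Of all shared candidates, whatever their signal, 7.31% both passed and reached the median signal of the arms. The odds ratio of passing stayed below 1, from 0.445 to 0.742, in each of the 10 alternatives for all shared candidates. By orientation, chosen after seeing the data, the tandem ratio was 0.674 with an interval reaching 1.04 at 500 bp. The convergent ratio was 0.469 (0.305 to 0.721) at 2000 bp and turned to 1.02 with GAGAGAG as a covariate. Divergent gene pairs had a shared peak in 3.12% at 500 bp, 7.91% in list B and 3.13% at or above the median signal. GAGAG in place of GAGAGAG was in 66.7% of shared peaks, and GAGAGAG in 50% of those at or above the median signal, where its odds ratio was 0.813. Membership of both lists was 90.8% for any candidate and 47.5% with 50% reciprocal overlap. The cause of these changes was not tested. No paired analysis was possible because there is 1 group and the lists carry no replicate number. List A and list B each leave out the other alignment, and the odds ratio of passing for shared candidates was 0.445 in list A and 0.548 in list B.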
